A study of Mus musculus with 12 samples.

Results

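The 51 genes described here encode the kinetochore, the spindle and the cytokinesis machinery, with the condensin, topoisomerase and anaphase proteins that work beside them in mitosis. They were taken by name from the 24108 genes of the count table; the list of names was drawn up with earlier results of these data known. All 51 were in the table and all 51 passed the filter on low counts, as 13745 genes did in all. The levels come from bulk RNA-seq of neural stem/progenitor cells (NPCs), 12 libraries in all, grown from the subventricular zone of C57BL/6 mice aged postnatal day 9 to 12. There were 4 groups of 3 libraries: p53-/- co-cultures, p53-/- NPCs cultured alone, p53+/+ (wild-type) co-cultures, and p53+/+ NPCs cultured alone. Co-cultured NPCs stayed for 48 h on a monolayer of brain microvascular endothelial cells (bmvECs), an assay in which contact with endothelium is used to bring NPCs into a quiescence-like state, and were then detached by selective trypsin treatment. NPCs alone stayed for 48 h on laminin. The p53-/- NPCs came from acute recombination of p53LoxP/LoxP NPCs in culture, by infection with an adenovirus that expresses Cre. For p53 loss-of-function experiments the study's methods name, as the control, an adenovirus with the promoter alone. The 3 libraries of a group belonged to experiments that the study numbered 17_9, 25_9 and 1_10. Nothing in the labels says whether the experiments used NPCs of separate mice, so the p-values measure the spread between these experiments.

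Mitosis is carried out by a set of proteins that a dividing cell makes late in its cycle and a quiescent cell hardly makes at all. The centromere carries the histone variant CENP-A, on which the CENP proteins build the kinetochore. The NDC80 complex of the kinetochore grips spindle microtubules, and the spindle assembly checkpoint delays anaphase until every chromosome is attached. Anaphase starts when CDC20 and the anaphase-promoting complex mark securin for destruction and release separase, and the centralspindlin proteins, PRC1 and the RhoA activator ECT2 then set up the cleavage furrow. Transcription of many of these genes is held down in quiescent cells by the DREAM complex, which acts at a promoter element called the CHR. The complex can be engaged by p53 through p21, the product of Cdkn1a. In the subventricular zone these genes are known as markers of dividing progenitors rather than of quiescent stem cells.

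A library held between 16509710 and 22245224 counts, and the fewest counts of any of the 51 genes in a library were 71, for Cenpk. Levels are given as CPM (the count divided by the TMM-scaled library size, times 1000000), in the order of experiments 17_9, 25_9 and 1_10, and serve to compare libraries, not genes, since no gene lengths were used. The targeted gene followed the labels: Trp53 had 13.7 to 19.3 CPM in p53-/- co-cultures and 11.7 to 17.4 CPM in p53-/- NPCs alone, against 61.8 to 78.8 CPM in p53+/+ co-cultures and 80.3 to 108.6 CPM in p53+/+ NPCs alone. Cdkn1a, a direct p53 target, had 4.74 to 31.2 CPM in the 6 p53-/- libraries and 350.2 to 458.2 CPM in the 6 p53+/+ libraries. With co-culture Cdkn1a changed by 0.23 ± 0.46 in p53-/- and by -0.07 ± 0.43 in p53+/+ NPCs on the log2 scale, called in neither. Of 10 neural progenitor markers, all tested, 3 were called lower and 2 higher in co-culture in each genotype. The lower ones were Nes, Olig2 and Fabp7 in p53-/- and Nes, Olig2 and Egfr in p53+/+ NPCs, and Nes changed by -0.66 ± 0.16 and -0.96 ± 0.16 on the log2 scale. The higher ones were Slc1a3, at 0.88 ± 0.12 in p53-/- and 1.02 ± 0.12 in p53+/+ NPCs, and Gfap, which is also an astrocyte gene, at 4.59 ± 0.35 and 4.56 ± 0.35. Whether these bear on the mitotic genes was not tested. The summed level of 18 endothelial markers was 138.5 to 170.4 CPM in p53-/- co-cultures and 149.9 to 227.5 CPM in p53+/+ co-cultures, against 35.5 to 47.5 CPM in p53-/- NPCs alone and 33.6 to 40.1 CPM in p53+/+ NPCs alone. Of these markers, 17 were called higher in p53-/- co-cultures and 18 in p53+/+ co-cultures, and the defining ones Tie1 and Cdh5 were at most 0.0993 CPM in the 6 libraries of NPCs alone, where the co-cultures had at least 18.8 CPM of Cdh5. The part of this endothelial RNA in the results below was not tested. Of the 6 microglial markers, P2ry12 had 0.546 to 4.45 CPM and the others at most 0.701 CPM.

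In co-culture the mitotic genes fell in both genotypes, with a smaller median change in p53-/- NPCs, a difference that is tested gene by gene with the interaction. In p53-/- NPCs 41 of the 51 were called lower in co-culture than alone and 1 was called higher (edgeR quasi-likelihood test, 3 libraries in each group, Benjamini-Hochberg adjusted p under 0.05), against 17.0% of the 13745 tested genes called lower and 18.8% called higher. Their median log2 fold change was -0.79, against -0.01 over all tested genes. In p53+/+ NPCs 50 were called lower and 1 was called higher, where 18.3% of the tested genes were called lower and 21.2% higher, and the median was -1.56, against 0.00 over all tested genes. Falls of over 2-fold were seen in 8 of the genes in p53-/- NPCs and in 48 in p53+/+ NPCs. In p53+/+ NPCs 769 of the 13745 tested genes fell by over 2-fold, and in p53-/- NPCs this was not counted over all genes. The gene called higher in both genotypes was Pttg1, which encodes securin. These are bulk samples, in which fewer dividing cells and less mitotic RNA per cell cannot be told apart.

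The 3 co-culture libraries lay below the 3 libraries of NPCs alone for 40 genes in p53-/- NPCs, where 21.5% of the tested genes were separated in this way, and for 50 genes in p53+/+ NPCs, where 25.7% were. Pttg1 was the only gene of the 51 separated the other way in either genotype, where 23.3% of the tested genes were in p53-/- and 27.9% in p53+/+ NPCs. Compared within each experiment, 49 of the genes were lower in co-culture in all 3 experiments in p53-/- NPCs, and 50 in p53+/+ NPCs. This was not counted over all genes. The 9 genes that were lower in p53-/- co-cultures without reaching the threshold were Cenpe, Cenpf, Kif20b, Prc1, Anln, Smc2, Smc4, Top2a and Mki67. With the experiment number as a block, which pairs the libraries, 48 were called lower, and of these 9 genes Cenpf and Mki67 stayed uncalled (adjusted p = 0.344 and 0.289), while the other 7 were called with an adjusted p of 0.00619 (Kif20b) to 0.0324 (Cenpe). The same block raised the number of all tested genes called lower to 3192, against 2341 without it. The count in p53-/- NPCs varied with the libraries included: it was 22 without the 17_9 co-culture and 25 without the 25_9 co-culture. It was 21 without experiment 17_9 and 12 without experiment 25_9, where Pttg1 was not called either. Over all tested genes, these fits called 1294, 1616, 889 and 804 lower, in the same order, against 2341 with all libraries.

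**Figure D1:**
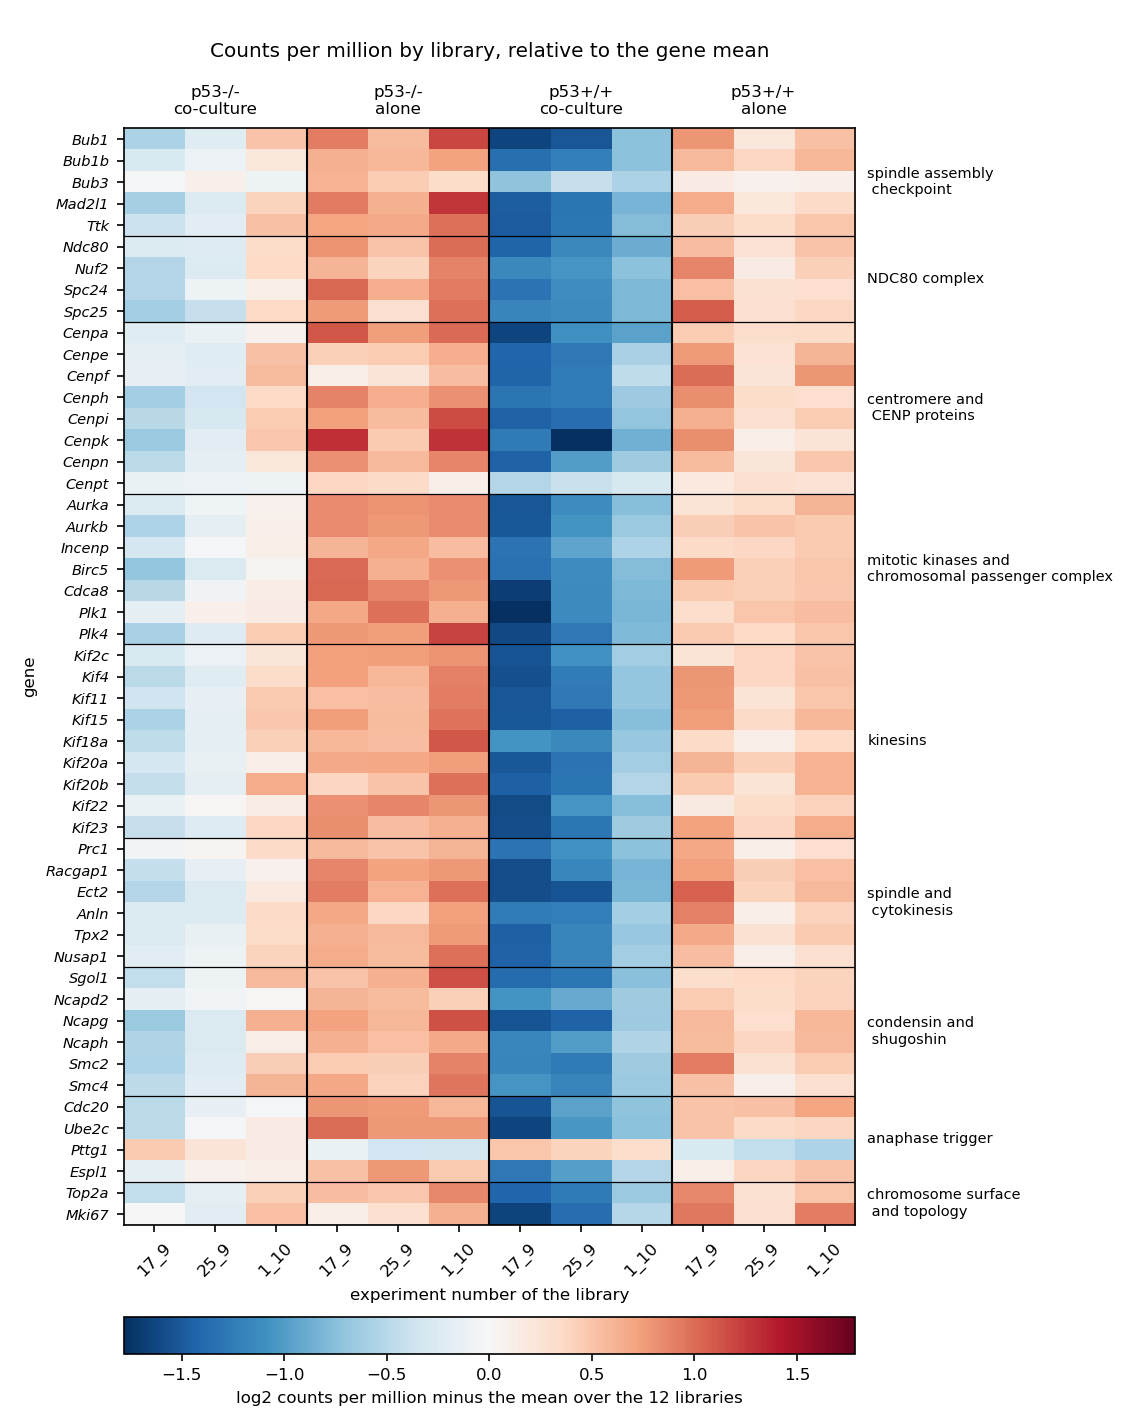
Level of the 51 genes in each of the 12 libraries, as log2 CPM minus the mean of that gene over the libraries (colour), with genes in rows by role and libraries in columns by group and experiment number. The p53+/+ co-cultures have the lowest group mean for 50 of the genes and Pttg1 runs the other way. The 1_10 library is the highest of its 3 co-cultures for 49 genes in each genotype.

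As a share of all counts, the 51 genes took 0.427%, 0.479% and 0.639% in p53-/- co-cultures, against 0.761%, 0.757% and 0.841% in p53-/- NPCs alone. In p53+/+ co-cultures they took 0.196%, 0.227% and 0.324%, against 0.788%, 0.632% and 0.726% in p53+/+ NPCs alone. Neither pair of groups overlapped, and all p53-/- co-cultures lay above all p53+/+ co-cultures. The order of the group means was the same for 47 of the 51 genes: lowest in p53+/+ co-culture, then p53-/- co-culture, then p53+/+ alone, and highest in p53-/- alone. The group mean was lowest in p53+/+ co-culture for 50 genes, all but Pttg1. Experiment 1_10 gave the highest co-culture level for 49 genes in p53-/- NPCs and for 49 in p53+/+ NPCs. Its co-cultures also had the lowest endothelial marker sum of each genotype, 138.5 CPM in p53-/- and 149.9 CPM in p53+/+ NPCs. Whether this bears on the level of the mitotic genes was not tested.

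**Figure D2:**
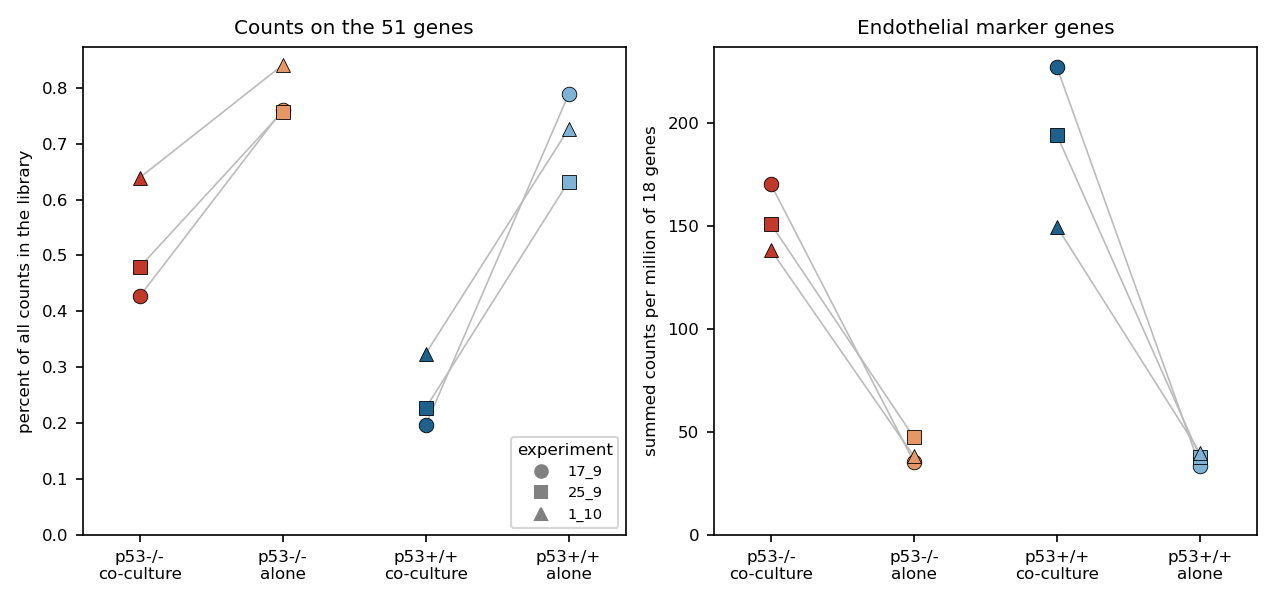
Left, percent of all counts in a library that fall on the 51 genes. Right, summed CPM of 18 endothelial marker genes. Each point is 1 library, marker shapes give the experiment, and grey lines join the co-culture and the culture alone of 1 experiment. The share was 0.427 to 0.639% in p53-/- co-cultures and 0.196 to 0.324% in p53+/+ co-cultures, and within each genotype the co-culture with the most mitotic counts (1_10) had the lowest endothelial sum.

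Promoter sequences were read for the 45 genes with a window in the RefSeq table of build GRCm38.p6, which spans 250 bases before a transcription start and 50 from it on. Sgol1 was found there as Sgo1, and Spc24, Aurkb, Incenp, Kif20a, Tpx2 and Smc4 had no window. Where a gene had more than 1 window, the one listed first was used. The CHR core TTTGAA, searched on both strands, was in 30 of the 45 windows (66.7%), against 18.1% of the windows of all 27025 genes and 11.2% of those of the 10296 tested genes that had one. The related palindrome TTCGAA was in 4 (8.89%), against 1.57% of all windows and 2.01% of those of tested genes. The box CCAAT was in 31 (68.9%), against 37.9% and 38.9%, and an E2F-type site, either TTCCCGC or else the form TTGGCGC, was in 10 (22.2%), against 6.93% of all windows and 12.7% of those of tested genes. The motifs were matched separately, and CHR and CCAAT were both present in 25 windows. Among the 38 CHR matches, 17 began within 150 bases before the start and 18 after it. The median log2 fold change in p53+/+ NPCs was -1.58 for the genes with TTTGAA and -1.54 for those without. In p53-/- NPCs the medians were -0.77 and -0.82. Whether the letters go with the size of the fall was not tested. A match describes the letters only and shows no binding.

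The 250 bases before the start are shown for the 3 genes with the largest fall in p53+/+ NPCs that held TTTGAA, Ect2, Mki67 and Kif15. They are on the gene strand, 5′ to 3′, with the matches to the 4 kinds of motif that end before the start in capitals, on either strand. Ect2 lies at chr3:27153879-27154128 on the minus strand, Mki67 at chr7:135716380-135716629 on the minus strand and Kif15 at chr9:122950831-122951080 on the plus strand.
Ect2: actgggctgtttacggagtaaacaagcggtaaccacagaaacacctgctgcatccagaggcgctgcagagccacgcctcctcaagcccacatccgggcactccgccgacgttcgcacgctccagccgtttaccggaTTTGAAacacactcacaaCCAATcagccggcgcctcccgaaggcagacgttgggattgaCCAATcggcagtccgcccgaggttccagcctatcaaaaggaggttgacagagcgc
Mki67: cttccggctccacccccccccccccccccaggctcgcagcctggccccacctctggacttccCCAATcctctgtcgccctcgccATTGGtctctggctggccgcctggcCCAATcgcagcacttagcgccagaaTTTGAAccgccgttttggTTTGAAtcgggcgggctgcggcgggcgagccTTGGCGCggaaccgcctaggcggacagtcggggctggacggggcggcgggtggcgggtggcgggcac
Kif15: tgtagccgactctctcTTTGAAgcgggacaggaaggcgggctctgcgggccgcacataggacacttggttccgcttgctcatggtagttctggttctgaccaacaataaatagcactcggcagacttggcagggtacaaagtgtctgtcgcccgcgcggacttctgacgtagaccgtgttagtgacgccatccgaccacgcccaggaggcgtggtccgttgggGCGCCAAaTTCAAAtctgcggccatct

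Counted from the start, with -1 the base just before it, Ect2 held TTTGAA at -114 and CCAAT at -96 and -55. It also held TTGGCGC in reverse across the start, from -2 to 5, overlapping a CCAAT at 2, and a further TTTGAA at 40, none of them in capitals. Mki67 held TTTGAA at -116 and -98, CCAAT at -188 and -141 and in reverse at -166, and TTGGCGC at -67. Kif15 held TTTGAA at -234 and in reverse at -19, with TTGGCGC in reverse at -27. For comparison, the same stretch is shown for Cenpt, the gene with a window whose change in p53+/+ NPCs was the smallest, and for Pttg1, the gene that rose. Both were chosen by their values. Cenpt lies at chr8:105852009-105852258 on the minus strand and Pttg1 at chr11:43425982-43426231 on the minus strand. Both windows held 0 matches to the motifs, as did 4 others, so that 6 of the 45 held none. The other 4 were those of Mad2l1, Nuf2, Birc5 and Nusap1, which changed by -1.58, -1.47, -1.62 and -1.37 on the log2 scale in p53+/+ NPCs.
Cenpt: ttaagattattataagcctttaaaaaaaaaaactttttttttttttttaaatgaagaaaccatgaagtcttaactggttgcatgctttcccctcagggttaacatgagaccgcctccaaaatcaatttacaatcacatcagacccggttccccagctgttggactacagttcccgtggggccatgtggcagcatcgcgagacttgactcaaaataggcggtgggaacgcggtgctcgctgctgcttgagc
Pttg1: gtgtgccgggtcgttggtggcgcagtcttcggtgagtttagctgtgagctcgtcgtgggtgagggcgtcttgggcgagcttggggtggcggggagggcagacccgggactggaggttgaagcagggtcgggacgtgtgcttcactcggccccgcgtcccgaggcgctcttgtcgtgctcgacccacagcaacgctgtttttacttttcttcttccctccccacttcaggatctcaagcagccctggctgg

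The spindle assembly checkpoint genes were lower in co-culture in both genotypes, all 5 of 5 in each. Bub1, a checkpoint kinase at the kinetochore, had 41.2, 52.4 and 86.9 CPM in p53-/- co-cultures, against 114, 90.0 and 139 CPM in p53-/- NPCs alone. It had 19.6, 21.1 and 36.9 CPM in p53+/+ co-cultures, against 105, 70.2 and 87.8 CPM in p53+/+ NPCs alone. The groups did not overlap in either genotype, although the 1_10 library of the p53-/- co-cultures lay close to the lowest library alone, and the log2 fold changes (± SE) were -0.93 ± 0.29 in p53-/- and -1.76 ± 0.30 in p53+/+ NPCs. Bub3, which recruits BUB1 and BUBR1 to the kinetochore and is also used outside mitosis, had 126, 137 and 122 CPM in p53-/- co-cultures, against 198, 177 and 162 CPM in p53-/- NPCs alone. Its p53+/+ co-cultures had 78.5, 96.8 and 87.0 CPM, against 142, 136 and 138 CPM for p53+/+ NPCs alone. Bub3 thus fell in both, but by 0.48 and 0.66 on the log2 scale, with Cenpt the least of the genes that fell in p53+/+ NPCs. Bub1b, which encodes the checkpoint protein BUBR1, changed by -0.69 ± 0.16 in p53-/- and by -1.59 ± 0.17 in p53+/+ NPCs. The values for Mad2l1, whose product binds CDC20, were -1.06 ± 0.25 and -1.58 ± 0.26, and for the checkpoint kinase gene Ttk -0.76 ± 0.22 and -1.57 ± 0.23.

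All 4 NDC80 complex genes fell in both genotypes as well. Spc25 had 30.9, 35.3 and 60.1 CPM in p53-/- co-cultures, against 79.7, 57.4 and 92.3 CPM in p53-/- NPCs alone. In p53+/+ co-cultures it had 20.8, 21.3 and 27.0 CPM, against 99.6, 57.3 and 60.4 CPM in p53+/+ NPCs alone. The p53-/- groups overlapped, the 1_10 co-culture lying above the 25_9 library alone. Spc24, which pairs with SPC25 at the inner end of the complex, had 12.8, 17.3 and 20.1 CPM in p53-/- co-cultures, against 37.4, 29.0 and 35.2 CPM alone, and 7.41, 8.60 and 10.6 CPM in p53+/+ co-cultures, against 26.9, 22.4 and 22.8 CPM alone. For Nuf2, the partner of NDC80 at the microtubule end, the p53-/- co-cultures had 58.0, 70.4 and 106 CPM, against 126, 109.6 and 154 CPM alone, and the p53+/+ co-cultures 37.4, 40.3 and 50.3 CPM, against 152, 92.2 and 111 CPM alone. Ndc80 itself changed by -0.80 ± 0.19 and -1.58 ± 0.19. The log2 fold changes of the 4 genes lay between -1.02 (Spc24) and -0.73 (Nuf2) in p53-/- NPCs and between -1.65 (Spc25) and -1.43 (Spc24) in p53+/+ NPCs, so that Spc24 fell the most of the 4 in one genotype and the least in the other.

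Of the 8 centromere and CENP genes, 6 were called lower in p53-/- co-cultures and 8 in p53+/+ co-cultures. Cenpk, which encodes a subunit of the centromere network on CENP-A chromatin, had 7.06, 9.74 and 15.5 CPM in p53-/- co-cultures, against 27.5, 15.3 and 27.2 CPM alone. It had 4.63, 3.23 and 6.16 CPM in p53+/+ co-cultures, against 19.8, 12.1 and 13.2 CPM alone. Its fall in p53-/- NPCs, -1.12 ± 0.32, was the largest of the 51 there, yet the 1_10 co-culture lay just above the 25_9 library alone. Cenpt, which anchors NDC80 to the centromere, changed the least of the genes that fell in p53+/+ NPCs: it had 32.3, 32.6 and 32.9 CPM in p53-/- co-cultures, against 45.2, 44.3 and 38.3 CPM alone, and 24.4, 26.8 and 28.7 CPM in p53+/+ co-cultures, against 39.7, 42.8 and 41.8 CPM alone. Its libraries did not overlap in either genotype and the log2 fold changes were -0.39 ± 0.11 and -0.64 ± 0.11. The call in p53+/+ NPCs was lost without experiment 25_9 (adjusted p = 0.0505).

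Cenpf, which encodes a large kinetochore protein of the late cell cycle, was not called in p53-/- NPCs. It had 143, 139 and 234 CPM in p53-/- co-cultures, against 171, 185 and 232 CPM in p53-/- NPCs alone, and these groups overlapped. In p53+/+ co-cultures it had 58.7, 67.1 and 116 CPM, against 316, 185 and 274 CPM alone, without overlap. The log2 fold changes were -0.19 ± 0.28 (adjusted p = 0.63) and -1.68 ± 0.28 (adjusted p = 0.000617). Cenpe, a kinetochore motor gene called in p53-/- NPCs with the block but not without it, had values of -0.42 ± 0.23 and -1.60 ± 0.24. Cenpa, the gene of the centromeric histone, had 48.3, 51.8 and 59.0 CPM in p53-/- co-cultures, against 121, 93.6 and 113 CPM alone, and 18.1, 26.2 and 28.9 CPM in p53+/+ co-cultures, against 76.7, 69.4 and 70.1 CPM alone. Its falls of 1.04 and 1.56 on the log2 scale were called in all 24 alternative fits of both genotypes. Cenph, Cenpi and Cenpn, further subunits of the centromere network, fell by 0.88 to 0.93 in p53-/- and by 1.41 to 1.59 in p53+/+ NPCs on the log2 scale.

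All 7 genes of the mitotic kinases and the chromosomal passenger complex were called lower in both genotypes. Plk1, a kinase needed for spindle assembly and cytokinesis, had 78.7, 93.2 and 97.0 CPM in p53-/- co-cultures, against 141, 173 and 136 CPM alone. Its p53+/+ co-cultures had 25.8, 40.0 and 49.8 CPM, against 109, 124 and 129 CPM alone. Incenp, the scaffold of the passenger complex, had 77.8, 94.6 and 103 CPM in p53-/- co-cultures, against 145, 155 and 139.6 CPM alone, and 38.4, 49.9 and 65.1 CPM in p53+/+ co-cultures, against 121, 124 and 132 CPM alone. None of these groups overlapped. Plk1 changed by -0.75 ± 0.19 and -1.64 ± 0.20, and Incenp by -0.67 ± 0.17 and -1.29 ± 0.17. Birc5, which encodes the passenger protein survivin, fell by 1.11 in p53-/- NPCs, the most of the 7, and by 1.62 in p53+/+ NPCs on the log2 scale. The other 4 are Aurka and Aurkb (Aurora kinases of the spindle poles and of the passenger complex), Cdca8 (borealin) and Plk4 (centriole duplication). They fell by 0.91 to 1.01 in p53-/- and by 1.50 to 1.63 in p53+/+ NPCs on the same scale.

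**Figure D3:**
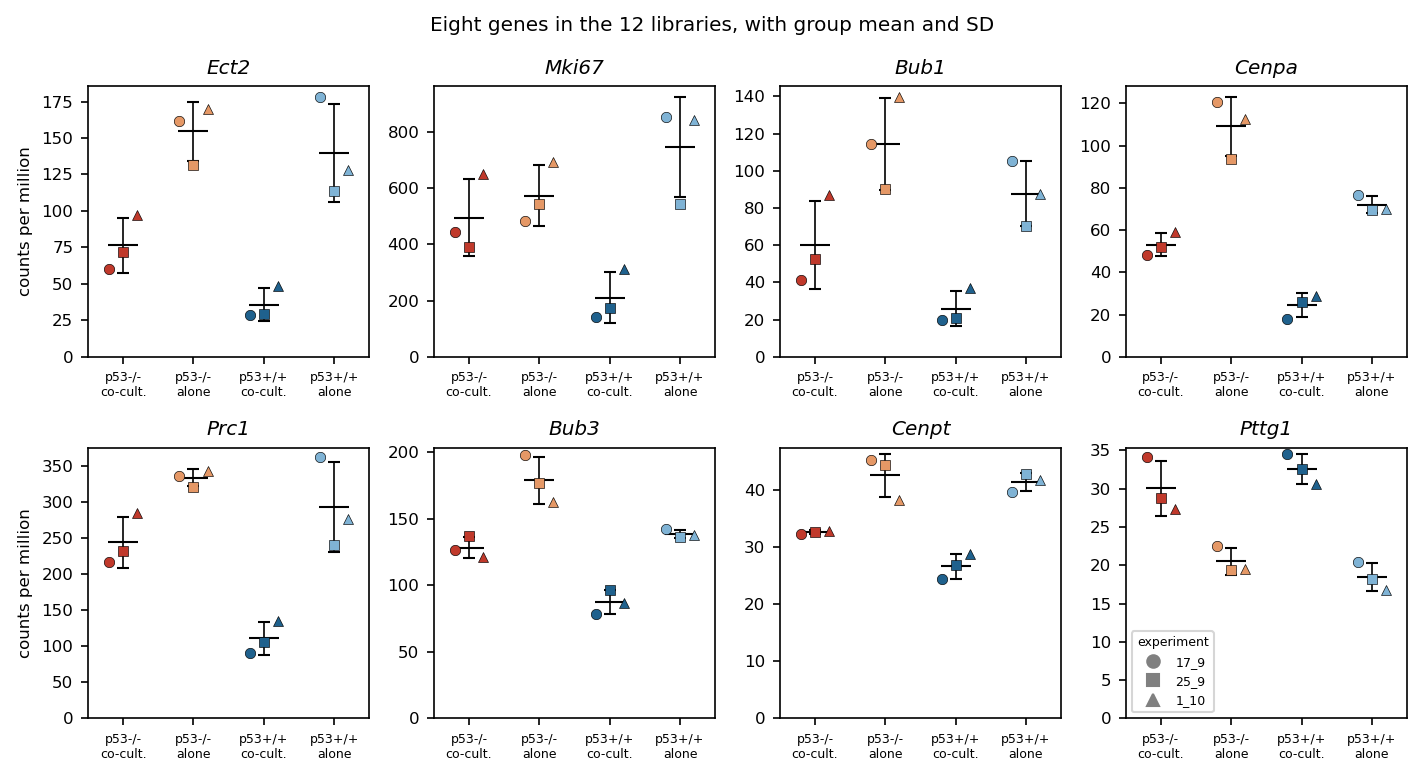
CPM in the 12 libraries for 8 of the genes, on linear axes from 0. Points are libraries, marker shapes give the experiment, and black lines give the mean and SD of the 3 libraries of a group. Ect2 and Bub1 were lowest in p53+/+ co-cultures, Mki67 overlapped between p53-/- co-cultures and p53-/- NPCs alone, Cenpt and Bub3 changed by less than the other genes that fell in p53+/+ NPCs, and Pttg1 was higher in both co-cultures.

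Among the 9 kinesins, 8 were called lower in p53-/- co-cultures and 9 in p53+/+ co-cultures. Kif15, a plus-end motor that helps to keep the spindle bipolar, had 40.9, 53.6 and 84.4 CPM in p53-/- co-cultures, against 101, 89.5 and 117 CPM alone. It had 21.1, 22.0 and 35.5 CPM in p53+/+ co-cultures, against 101, 76.6 and 91.2 CPM alone. Kif11, the main motor that pushes the poles apart, had 129, 149 and 227 CPM in p53-/- co-cultures, against 241, 243 and 311 CPM alone, and 57.3, 68.4 and 103 CPM in p53+/+ co-cultures, against 282, 196 and 234 CPM alone. For both motors the 1_10 library of the p53-/- co-cultures lay closest to the libraries alone, without reaching them. Kif15 changed by -0.79 ± 0.25 and -1.78 ± 0.26, and Kif11 by -0.65 ± 0.24 and -1.64 ± 0.25. Kif18a, which dampens chromosome movements at the metaphase plate, had 35.7, 44.0 and 66.0 CPM in p53-/- co-cultures, against 73.9, 71.6 and 106 CPM alone, and 23.5, 22.2 and 30.6 CPM in p53+/+ co-cultures, against 62.2, 53.1 and 62.7 CPM alone. Its fall in p53+/+ NPCs, by 1.22 on the log2 scale, was the smallest of the kinesins, and its fall in p53-/- NPCs was 0.79. Kif22, a chromosome-arm motor gene, had 69.2, 76.6 and 82.5 CPM in p53-/- co-cultures, against 132, 138 and 129 CPM alone, and 24.9, 36.1 and 44.5 CPM in p53+/+ co-cultures, against 84.3, 93.9 and 99.8 CPM alone, with no overlap. The others are Kif2c (a microtubule depolymerase at centromeres), Kif4 (chromosome arms and midzone), Kif20a, Kif20b and Kif23 (cytokinesis). Their log2 fold changes lay between -0.83 and -0.54 in p53-/- NPCs, with Kif20b called with the block but not without it, and between -1.71 and -1.40 in p53+/+ NPCs.

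Of the 6 spindle and cytokinesis genes, 4 were called lower in p53-/- co-cultures and 6 in p53+/+ co-cultures. Ect2, the exchange factor that activates RhoA at the cleavage furrow, whose promoter is among those printed, had 60.0, 72.1 and 97.0 CPM in p53-/- co-cultures, against 162, 132 and 170.1 CPM alone. It had 28.8, 29.5 and 48.7 CPM in p53+/+ co-cultures, against 178, 114 and 128 CPM alone, and its fall there, -1.97 ± 0.24, was the largest of the 51. In p53-/- NPCs it was -1.02 ± 0.24, and the libraries did not overlap in either genotype. Prc1, which bundles the microtubules of the central spindle, had 217, 232 and 285 CPM in p53-/- co-cultures, against 337, 321 and 344 CPM alone, and 90.7, 106 and 136 CPM in p53+/+ co-cultures, against 362, 241 and 277 CPM alone. Its p53-/- libraries did not overlap, but the change of -0.45 ± 0.17 missed the threshold (adjusted p = 0.0588, 0.0294 with the block), whereas it was -1.40 ± 0.18 in p53+/+ NPCs. Nusap1, which binds spindle microtubules, had 83.1, 89.8 and 126 CPM in p53-/- co-cultures, against 151, 141 and 189 CPM alone, and 35.1, 41.8 and 62.1 CPM in p53+/+ co-cultures, against 140.1, 104 and 117 CPM alone. Its falls were 0.69 and 1.37 on the log2 scale. Racgap1, the centralspindlin subunit that binds ECT2, fell by 0.94 and 1.73. The value for Tpx2, an activator of Aurora A, was -0.66 in p53-/- and -1.54 in p53+/+ NPCs, and for Anln, the furrow scaffold anillin, -0.63 and -1.51.

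Among the 6 condensin and shugoshin genes, 4 were called lower in p53-/- co-cultures and 6 in p53+/+ co-cultures. Ncapg, a condensin subunit, had 38.0, 50.5 and 94.0 CPM in p53-/- co-cultures, against 98.9, 90.8 and 132 CPM alone, and the 1_10 co-culture lay among the libraries alone. It had 20.6, 22.2 and 38.4 CPM in p53+/+ co-cultures, against 90.4, 74.4 and 91.2 CPM alone, with no overlap. The log2 fold changes were -0.82 ± 0.30 (adjusted p = 0.04999) and -1.66 ± 0.31. Ncapd2, another condensin subunit, varied less between libraries, with 218, 234 and 247 CPM in p53-/- co-cultures, against 370.3, 360.4 and 327 CPM alone, and 116, 130.1 and 157 CPM in p53+/+ co-cultures, against 332, 305 and 324 CPM alone. Its changes of -0.60 ± 0.12 and -1.25 ± 0.12 were the smallest of the 6 and had the smallest errors. Smc2 and Smc4, the ATPase pair of condensin, changed by -0.67 ± 0.26 and -0.65 ± 0.25 in p53-/- NPCs, called with the block (adjusted p = 0.0123 and 0.00748) but not without it, and by -1.56 ± 0.26 and -1.26 ± 0.25 in p53+/+ NPCs. Sgol1, which protects centromeric cohesion, and Ncaph, the condensin kleisin, fell by 0.72 and 0.82 in p53-/- and by 1.46 and 1.38 in p53+/+ NPCs on the log2 scale.

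Of the 4 anaphase genes, 3 fell and Pttg1 rose in each genotype. Cdc20, the activator of the anaphase-promoting complex in mitosis, had 66.9, 84.2 and 90.9 CPM in p53-/- co-cultures, against 162, 158 and 141 CPM alone. It had 32.2, 48.1 and 56.6 CPM in p53+/+ co-cultures, against 133, 134 and 153 CPM alone, and changed by -0.93 ± 0.18 and -1.62 ± 0.18. Pttg1 had 34.1, 28.7 and 27.3 CPM in p53-/- co-cultures, against 22.6, 19.4 and 19.5 CPM alone. Its p53+/+ co-cultures had 34.5, 32.5 and 30.6 CPM, against 20.4, 18.2 and 16.7 CPM alone. All 3 co-cultures lay above all 3 libraries alone in both genotypes, and the 17_9 library was the highest of every group. The rises of Pttg1 were 0.55 ± 0.13 (adjusted p = 0.00669) and 0.82 ± 0.13 (adjusted p = 0.000492). Ube2c, the ubiquitin-conjugating enzyme of the anaphase-promoting complex, fell by 0.95 and 1.50 on the log2 scale, and Espl1, the gene of separase itself, by 0.58 and 1.24. Securin and separase, which bind each other, thus moved in opposite directions at the RNA level.

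Top2a and Mki67, the topoisomerase that disentangles sister chromatids and the Ki-67 protein that coats mitotic chromosomes, were called lower in p53+/+ co-cultures and not in p53-/- co-cultures. Mki67 had 444, 391 and 649.6 CPM in p53-/- co-cultures, against 484, 545 and 693 CPM in p53-/- NPCs alone, and these groups overlapped. In p53+/+ co-cultures it had 143, 175 and 314 CPM, against 855, 543 and 843 CPM alone, where all co-cultures lay below all libraries alone. Its log2 fold changes were -0.21 ± 0.28 (adjusted p = 0.59) and -1.83 ± 0.29 (adjusted p = 0.000431). Top2a had 437, 524 and 796 CPM in p53-/- co-cultures, against 865, 823 and 1070.1 CPM alone. The p53+/+ co-cultures had 221, 246 and 374 CPM, against 1065, 711 and 833 CPM alone. The p53-/- libraries of Top2a did not overlap, with a change of -0.65 ± 0.24 that missed the threshold (adjusted p = 0.0517, 0.00973 with the block), and the change in p53+/+ NPCs was -1.63 ± 0.25.

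**Figure D4:**
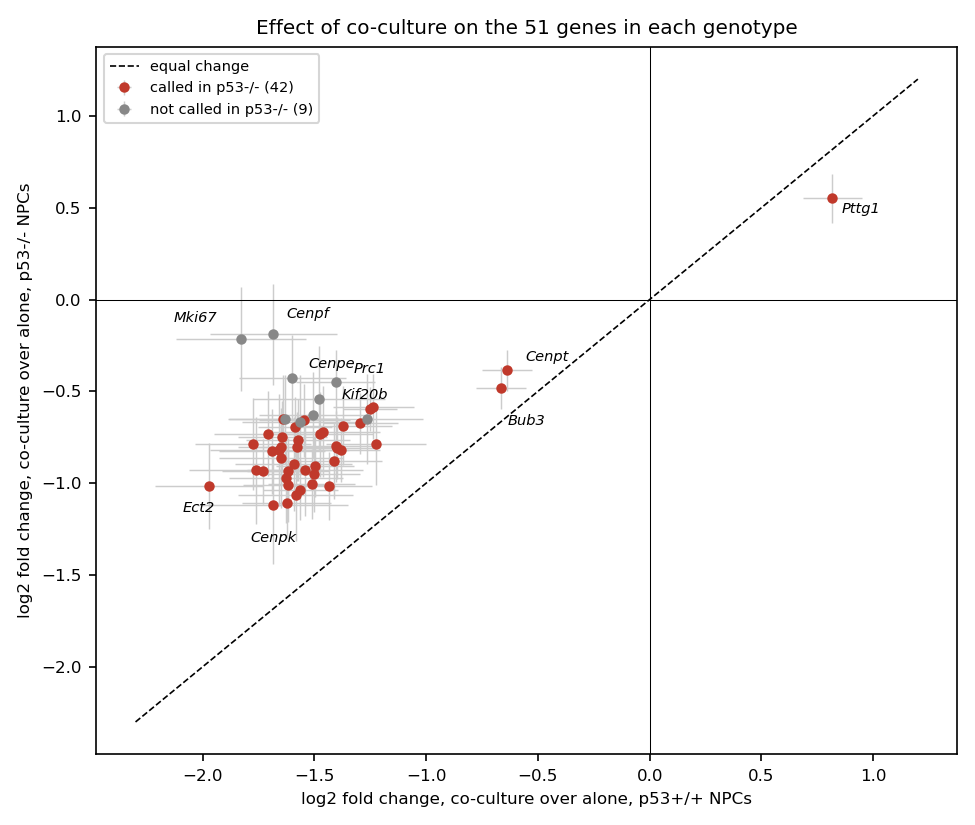
Log2 fold change of co-culture over culture alone in p53-/- NPCs (vertical axis) against the same in p53+/+ NPCs (horizontal axis) for the 51 genes, with the SE of each as bars. The dashed line marks an equal change. The 50 genes that fell in p53+/+ NPCs all lie above the line, furthest for Mki67 and Cenpf, and the 9 genes in grey were not called in p53-/- NPCs in the fit without the block.

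The loss of p53 left the mitotic genes higher in co-culture. There 48 of the 51 were called higher in p53-/- than in p53+/+ NPCs and 0 lower (0 also at an unadjusted p under 0.05 and by DESeq2), against 3.24% of all tested genes called higher and 4.93% lower, with a median log2 fold change of 1.04 against 0.02 over all tested genes. The 3 p53-/- co-cultures lay above the 3 p53+/+ co-cultures for 49 genes, where 14.4% of the tested genes were separated in this direction. Within the experiments, 50 genes were higher in p53-/- co-cultures in all 3. The change was over 2-fold for 30 genes, and the 48 called genes lay between 0.55 (Bub3) and 1.23 (Mki67). The counts within experiments and of changes over 2-fold were not made over all genes. Not called were Spc25 (0.87 ± 0.28, adjusted p = 0.0697, 0.0226 with the block), Cenpt (0.29 ± 0.11, adjusted p = 0.121) and Pttg1 (-0.11 ± 0.13, adjusted p = 0.626). These co-cultures are the ones that also give the co-culture effect of each genotype, so the comparisons share libraries and are not independent of each other.

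The lowest p-values for p53 loss in co-culture were those of Cenpa (1.12 ± 0.17, adjusted p = 0.00202), Ncapd2 (0.79 ± 0.12, adjusted p = 0.00246), Kif22 (1.11 ± 0.17, adjusted p = 0.00255) and Prc1 (1.14 ± 0.18, adjusted p = 0.00255). Their library values are given above with their role groups. For each of the 4, all p53-/- co-cultures lay above all p53+/+ co-cultures. By role, 5 of 5 checkpoint genes, 3 of 4 NDC80 genes, 7 of 8 centromere genes, 7 of 7 kinase and passenger genes, 9 of 9 kinesins, 6 of 6 spindle and cytokinesis genes, 6 of 6 condensin and shugoshin genes, 3 of 4 anaphase genes and both of Top2a and Mki67 were called higher. The role groups had medians between 0.86 for the anaphase genes and 1.15 for Top2a and Mki67.

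The count varied with the libraries included. It was 15 without the 17_9 library and 16 without the 25_9 library of p53+/+ co-culture, 18 without the 1_10 library of p53-/- co-culture. Leaving out an experiment gave 30 without 17_9, 0 without 25_9 and 40 without 1_10. Over all tested genes, these fits called 72, 117, 156, 195, 2 and 239 higher, in the same order, against 445 with all libraries. Without experiment 25_9, 2 genes were called higher and 40 lower over the whole table, with 0 of the mitotic genes among them. At an unadjusted p under 0.05, 49 of the mitotic genes were higher in that fit, a count not made over all genes. The median log2 fold change of the mitotic genes in it was 1.02. The median log2 ratio of p53-/- to p53+/+ co-cultures was 1.04 in experiment 17_9, 1.04 in experiment 25_9 and 1.00 in experiment 1_10, with 50 of 51 genes higher in each.

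In NPCs alone the loss of p53 changed few of these genes past the threshold. Cenpa, the only gene called, was higher and 0 were lower, against 2.02% of all tested genes called higher and 4.27% lower, and the median log2 fold change was 0.25 against 0.05 over all tested genes. At an unadjusted p under 0.05, 8 genes were higher and 0 lower, which was not counted over all genes. DESeq2 called 3 higher and 0 lower, where it called 516 of the 13745 tested genes higher and 954 lower. The 3 p53-/- libraries lay above the 3 p53+/+ libraries for 19 genes, against 15.0% of the tested genes. In all 3 experiments 33 genes were higher, a count not made over all genes. Cenpa changed by 0.60 ± 0.16 (adjusted p = 0.045), with 93.6 to 120.7 CPM in p53-/- NPCs and 69.4 to 76.7 CPM in p53+/+ NPCs. The next lowest p-values were those of Bub3 (0.37 ± 0.11, adjusted p = 0.0708), Kif22 (0.52 ± 0.17, adjusted p = 0.0845) and Spc24 (0.50 ± 0.18, adjusted p = 0.124), whose libraries did not overlap either. With the experiment number as a block, which pairs the libraries, 5 genes were called: Aurka, Bub3, Cenpa, Kif18a and Kif22. The genes with negative values were Cenpf (-0.40 ± 0.28), Mki67 (-0.38 ± 0.28) and Cenpe (-0.05 ± 0.23), all 3 overlapping and not called. The call of Cenpa was held by 2 of the 15 fits that left out a library or an experiment.

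**Figure D5:**
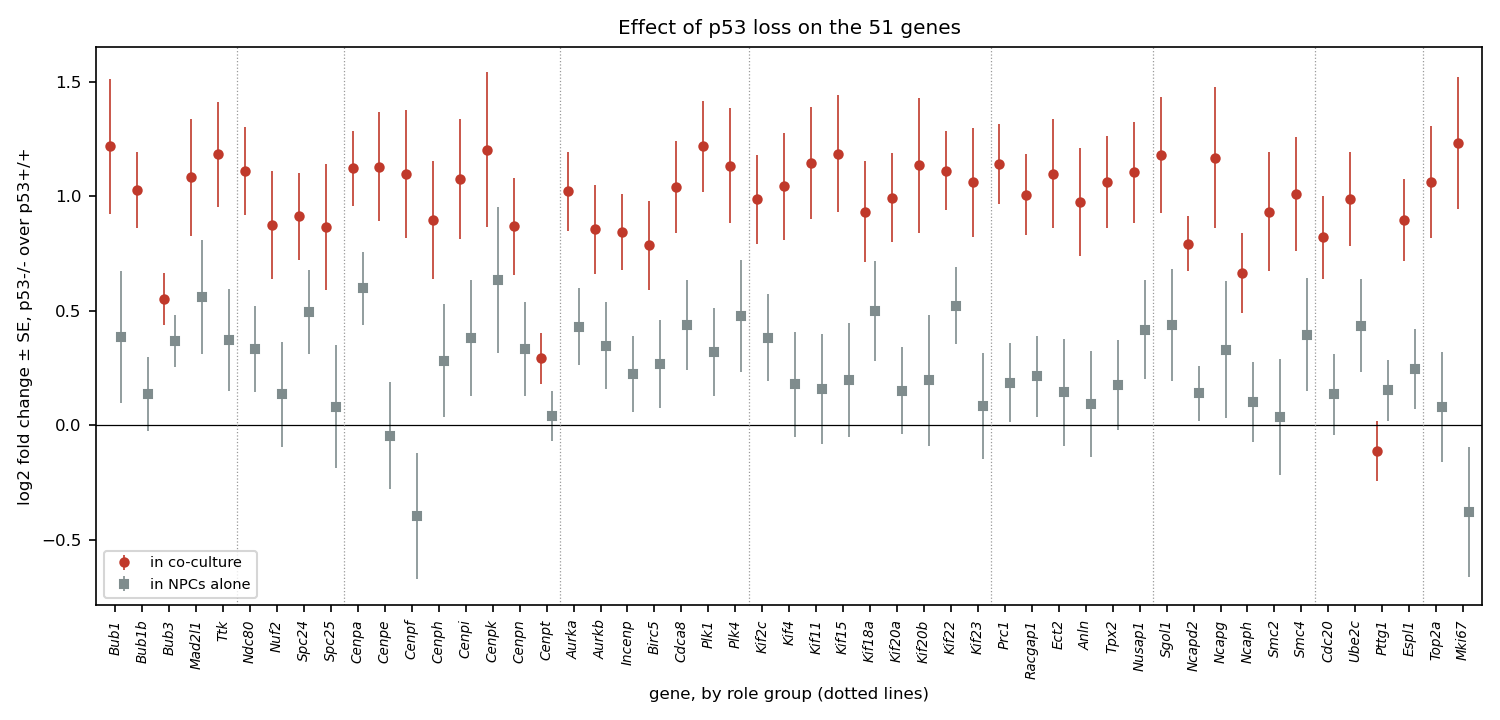
Log2 fold change of p53-/- over p53+/+ NPCs in co-culture (red circles) and alone (grey squares) for the 51 genes, with the SE as bars and genes in role groups divided by dotted lines. In co-culture 48 genes were called, between 0.55 and 1.23. Alone 1 gene was called, and Cenpf and Mki67 lay at -0.40 and -0.38.

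Whether the effect of co-culture differed between the genotypes was tested by the interaction, the log2 fold change of co-culture in p53-/- minus that in p53+/+ NPCs. No gene of the 51 was called by edgeR, against 0.00% of all tested genes called higher and 0.0364% called lower, although the median was 0.70 against -0.02 over all tested genes. The value was positive for 50 genes, and 32 had an unadjusted p under 0.05. Neither of these was counted over all genes. DESeq2 called 2 of the 51, Cenpf and Mki67, where it called 9 of all tested genes higher and 16 lower. In the blocked fits edgeR called Mki67 alone (1.64 ± 0.25 (SE), adjusted p = 0.0468), and DESeq2 called 22 genes. Over all tested genes, blocked edgeR called 3 higher and 8 lower, and blocked DESeq2 called 205 higher and 70 lower. The lowest p-values were those of Mki67 (1.61 ± 0.40, adjusted p = 0.659), Bub1b (0.89 ± 0.23, adjusted p = 0.659) and Prc1 (0.96 ± 0.25, adjusted p = 0.659). Cenpf (1.49 ± 0.39) and Cenpe (1.17 ± 0.33) had the next largest values. Bub1b had 85.9, 96.8 and 119 CPM in p53-/- co-cultures, against 161, 157 and 172 CPM alone, and 40.8, 44.9 and 62.5 CPM in p53+/+ co-cultures, against 155, 134 and 156 CPM alone, with no overlap in either genotype. The only negative value was that of Pttg1 (-0.27 ± 0.19), whose rise was the smaller in p53-/- NPCs. For 50 genes the change was thus less negative in p53-/- NPCs, a difference that reached the threshold for single genes in the fits named and in none of the 15 fits that left out a library or an experiment.

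The size of the co-culture effect differed between experiments in the same order in both genotypes. The median log2 ratio of co-culture to culture alone was -1.09, -0.74 and -0.56 in p53-/- NPCs in experiments 17_9, 25_9 and 1_10, and -2.08, -1.49 and -1.16 in p53+/+ NPCs. In every experiment 49 or 50 of the 51 genes were lower in p53-/- co-cultures and 50 in p53+/+ co-cultures. The 17_9 libraries of NPCs alone stood apart in the contractile genes Acta2 and Tagln, with 765.3 and 440.5 CPM in p53-/- NPCs and 431.5 and 239.8 CPM in p53+/+ NPCs, against 31.8 to 63.6 CPM in the other 4 libraries alone. Without experiment 17_9 the median change of the 51 genes in p53+/+ NPCs was -1.31. The part of these genes in the result was not tested.

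Other genes of the same machinery were read from 4 lists of 86 genes, none of them among the 51, and all 86 were tested. Over all tested genes, 17.0% were called lower in p53-/- and 18.3% in p53+/+ co-cultures, and 18.8% and 21.2% higher. Of 30 other kinetochore genes, 20 were called lower in p53-/- co-cultures and 25 in p53+/+ co-cultures. None was called higher in either (0 also at an unadjusted p under 0.05). Their medians were -0.67 and -1.22, against -0.01 and 0.00 over all tested genes. Casc5, the scaffold that carries the checkpoint proteins, fell by 1.76 on the log2 scale in p53+/+ NPCs, and its value in p53-/- NPCs was -0.43. Mis18a, which helps to load CENP-A, was called higher without p53 both alone (0.80) and in co-culture (0.94). Of 25 other spindle and cytokinesis genes, 17 were called lower in p53-/- and 24 in p53+/+ co-cultures, with medians of -0.64 and -1.40. Depdc1a changed the most in p53+/+ NPCs, at -2.01, and Ckap5, a microtubule polymerase, was not called in either, with 0.30 in p53-/- and 0.24 in p53+/+ NPCs. Ckap2, a spindle protein gene, was the one gene of the 4 lists that was called lower without p53, by 1.22 on the log2 scale in NPCs alone.

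The cohesin and other chromosome structure genes changed less. Of 16, 3 were called lower in p53-/- and 14 in p53+/+ co-cultures, where 17.0% and 18.3% of all tested genes were. The count in p53-/- NPCs was thus near the share over all genes. The medians of the 16 were -0.38 and -0.71. The cohesin subunits Smc1a, Smc3 and Rad21 had values of -0.36, -0.24 and -0.39 in p53-/- and of -0.56, -0.57 and -0.79 in p53+/+ NPCs. The acetyltransferase Esco2, which acts in S phase, had -0.68 and -1.65. Of 15 subunits and regulators of the anaphase-promoting complex, 6 were called lower in p53-/- and 6 in p53+/+ co-cultures, against the same shares of all tested genes. Their medians were -0.41 and -0.32. Its inhibitor Fbxo5 fell by 0.92 and 1.55 on the log2 scale, and its chain-elongating enzyme Ube2s by 0.96 and 0.95. For p53 loss in co-culture, 17 of the 30 kinetochore genes and 18 of the 25 spindle and cytokinesis genes were called higher. So were 3 of the 16 chromosome structure genes and 1 of the 15 of the anaphase-promoting complex, Fbxo5. In each list 0 were lower, also at an unadjusted p under 0.05. Over all tested genes, 3.24% were called higher and 4.93% lower.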

How the data were processed

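NPC libraries were made with a stranded mRNA kit. Per the submitters' processing notes and the study's methods, the authors used TopHat2 2.0.11 for alignment against mm9, then HTSeq 0.6.1 to obtain the deposited raw counts, listed by gene symbol. Neither the strand setting nor the annotation was found in the sources used here, so overlapping genes, antisense genes and near-identical copies are uncertain. Dates stood in place of 27 symbols, which held 0.410% of a library's counts or less, and no result is given for them.

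Genes with low counts were removed with filterByExpr (edgeR 4.0.16, R 4.3.3, limma 3.58.1), which kept 13745 of 24108. One quasi-likelihood model with a coefficient for each of the 4 groups was fitted to all 12 libraries with TMM scaling, and 5 comparisons were tested, each adjusted by Benjamini-Hochberg over all tested genes with a threshold of 0.05. Log2 fold changes are given with their SE, and CPM per library. The precision of low genes is limited by the 16509710 to 22245224 counts per library. The code was tested on simulated data.

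The experiment numbers pair the libraries, as the key of a table of the study states. After the group means were subtracted, same-numbered libraries were correlated over genes with r of 0.128 to 0.618 (18 pairs), and those of different numbers with r of -0.608 to 0.241 (36 pairs). The main model has no such block, and the blocked fit is an alternative. In the 12 pairs of libraries within a group, counts differed by 13.2 to 62.5 times the variance of counting alone, so none was a copy of another.

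The 51 genes, their 9 role groups and the 4 lists of other genes were chosen with earlier results of these data known. Library values are given for the genes of each role group with the largest and the smallest change in p53+/+ co-culture and the most counts, for the 4 genes of lowest p in each effect of p53 loss, the 3 of lowest p in the interaction, and any gene called against most of the others. Alternatives were the replicate block, other scalings, DESeq2 1.42.0 with and without the block, other filters, a fit of the compared groups alone, a threshold of 0.01, and leaving out 1 library or 1 experiment in turn. Promoters came from RefSeq (GRCm38.p6), a build other than that of the counts, and were matched by symbol. Other assays of the study were not used here.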

Additional observations from a re-analysis of the deposited data

How the results depend on the processing

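For the co-culture effect in each genotype and for p53 loss in co-culture, no alternative fit turned the direction of any of the 51 genes. For p53 loss in NPCs alone, direction was followed through the fits only for Bub3, Spc24, Cenpa and Kif22. In the interaction it was followed only for Bub1b, Prc1 and Mki67. None of these named genes turned, and whether the other genes did in these comparisons was not tested. In p53+/+ co-culture, other scalings, filters, tools and the replicate block gave 50 genes called lower and 1 called higher, and leaving out 1 library or experiment gave 49 to 50 called lower, with medians of -1.79 to -1.31. In p53-/- co-culture 22 genes were called lower at a threshold of 0.01, 48 with the replicate block, and 12 to 48 without 1 library or experiment, with 0 to 1 called higher and medians of -1.01 to -0.62. For p53 loss in NPCs alone, 5 genes were called higher with the replicate block, 3 with DESeq2, and 9 with DESeq2 and the replicate block. Over all tested genes, these fits called 996, 516 and 1091 higher. The number for the 51 was 0 in the fit of the compared groups alone, 0 at a threshold of 0.01, and 0 to 2 without 1 library or experiment.

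For p53 loss in co-culture 16 genes were called higher at a threshold of 0.01, 49 with the replicate block, and 0 to 49 without 1 library or experiment, with medians of 0.80 to 1.26. In the interaction 1 gene was called with the replicate block, 2 with DESeq2 and 22 with DESeq2 and the replicate block. Over all tested genes, these fits called 3, 9 and 205 higher. The block left the counts of the 51 genes in p53+/+ co-culture unchanged, but raised those of all tested genes in every comparison: to 1373 higher and 1499 lower for p53 loss in co-culture, and to 996 higher and 1282 lower, against 277 and 587 without it, for p53 loss in NPCs alone. Scaled by library size only, all tested genes split into 624 higher and 555 lower for p53 loss in co-culture, against 445 higher and 677 lower with TMM. Without Top2a and Mki67 the mean share of counts was 0.640% in p53-/- and 0.555% in p53+/+ NPCs cultured alone, against 0.786% and 0.716% with them. Leaving out an experiment leaves 2 libraries in each group. The cause of the other changes was not tested.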
